A study of Caenorhabditis elegans with 16 samples.

Results

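The fatty acid desaturases *fat-1* to *fat-7* of *C. elegans* were followed across 8 groups of L1 larvae. The 7 genes were taken by their WormBase symbols, with no use of their measured values, from 46726 genes listed per library. All 7 had counts in every library and were among the 30177 genes that were tested. The study examined worms that lack the transcription factor HLH-30 in starvation and in later feeding with a defined medium. RNA was sequenced from pooled whole larvae in 16 libraries, 2 for each group. The mutant strain carried *hlh-30(lf)*, the tm1978 deletion of 2 exons, after outcrossing to wild-type N2, which was the control, and eggs of both were collected by bleaching adults raised on the *E. coli* strain OP50. Each genotype was sampled in 4 states. Fed larvae had been 18 hours on dishes with OP50, starved larvae had spent 33 hours in the salt solution M9, and the last 2 groups were starved in the same way and then kept for 3 or 15 hours in CeMM, the *C. elegans* maintenance medium. All refed larvae therefore shared the preceding starvation, and none was refed with bacteria. Fed and starved larvae also differed in age, in development and in culture, so these cannot be told apart from the lack of food, and no starved larvae of the same age as the refed ones were sequenced.

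Desaturases insert double bonds into fatty acyl chains and work in the endoplasmic reticulum with electrons passed on by cytochrome b5. In *C. elegans* the delta-9 desaturases begin the pathway by making monounsaturated fatty acids: FAT-5 acts mainly on palmitic acid, and FAT-6 and FAT-7 act mainly on stearic acid to make oleic acid. FAT-2 then turns oleic into linoleic acid, and FAT-1, FAT-3 and FAT-4 add the further double bonds of the long polyunsaturated fatty acids (PUFAs), with an elongase acting between FAT-3 and FAT-4. Worms can make all of their PUFAs in this way, and take up fatty acids from bacteria as well. In adult worms the intestine and epidermis hold much of this activity, and expression of the delta-9 genes is known to respond to fasting.

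In the coordinates of the deposited files (build WBcel235), 5 of the genes lay on chromosome IV and the other two on chromosome V. *fat-1* (WBGene00001393, IV:13315644-13318783, plus strand) lay 5074 bases before *fat-2* (WBGene00001394, IV:13323858-13326394, plus strand). *fat-4* (WBGene00001396, IV:9799429-9802231, plus strand) lay 794 bases before *fat-3* (WBGene00001395, IV:9803026-9806121, plus strand). *fat-6* (WBGene00001398, IV:11913690-11917340) was on the minus strand. *fat-5* (WBGene00001397, V:17723780-17726825) was on the plus strand, and *fat-7* (WBGene00001399, V:7151356-7153146) on the minus strand. The exonic length used for *fat-5* was 2335 bases and that for *fat-6* was 3488 bases, 2.12 and 2.99 times the 1104 and 1166 bases of Ensembl release 115. Values per length of these 2 genes therefore depend on the gene model, and reads were not recounted with the shorter ones. The *fat-5* model also overlaps *twk-42* and W06D12.8 on the other strand. *fat-6* and *fat-7* are close paralogs, and only reads that aligned uniquely and to 1 gene were counted, so their split is uncertain.

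Total counts were between 29205691 and 40955529 per library, so 3 counts equalled 0.0733 to 0.103 CPM (counts per 1000000 counts of the library). By the study's methods the 2 samples of a group were biological replicates. Replicates were run at different times, each together with its controls, while the labels do not say which samples shared a run. *hlh-30* itself had 381 and 433 CPM in fed *hlh-30(lf)* libraries, against 643 and 690 CPM in fed wild type, and 370 and 385 CPM after 15 hours in CeMM, against 528 and 691 CPM in wild type. It was also lower after 3 hours in CeMM. In starved worms, however, *hlh-30* had 716 and 747 CPM in the libraries labelled *hlh-30(lf)*, against 619 and 662 CPM in wild type. Both of the former lay above wild type, but the difference did not pass the threshold of the test (log2 fold change 0.19). Counts over the whole gene do not resolve the deletion, so the starved libraries are called here by their labels. All 6 intestinal, 5 epidermal, 3 muscle and 4 neuronal markers examined had counts in at least 1 library of every group. Yolk genes, a mark of adults, summed to between 0.857 and 2.64 CPM in *hlh-30(lf)* libraries and between 1.80 and 64.01 CPM in wild-type libraries, with the highest sums in 1 starved and 1 CeMM 3 h library. In pooled larvae, fewer cells of a type and less RNA per cell cannot be told apart.

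Expression is given first as TMM-normalised CPM, which compares 1 gene between libraries. Whether the libraries of groups overlapped is told as a description only, since the share of all genes without overlap was not counted. *fat-5*, the palmitoyl-CoA desaturase, spanned the widest range of the 7 genes, a 299-fold difference between its highest and lowest group mean. It had 7.19 and 5.61 CPM in fed, 1.56 and 1.12 CPM in starved, 21.3 and 24.4 CPM in CeMM 3 h and 43.7 and 34.0 CPM in CeMM 15 h *hlh-30(lf)* libraries. In wild type it had 3.00 and 3.92 CPM fed, 0.737 and 0.694 CPM starved, 202 and 203 CPM after 3 hours in CeMM and 196 and 231 CPM after 15 hours. *fat-5* was thus low in both genotypes without CeMM and high in both with it, and the CeMM libraries of the genotypes did not overlap. In the order of its 8 group means, only the 2 highest neighbours, wild-type CeMM 15 h and CeMM 3 h, had overlapping libraries. The lowest libraries, starved wild type, still held 25 and 26 counts each.

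*fat-6*, a stearoyl-CoA desaturase, was the most abundant delta-9 gene per length in all groups but CeMM 3 h wild type, where *fat-5* was with the deposited lengths and *fat-6* with those of release 115 (52.7% of the delta-9 sum, against 47.2% for *fat-5*). It had 341 and 314 CPM in fed, 336 and 336 CPM in starved, 292 and 277 CPM in CeMM 3 h and 69.2 and 55.9 CPM in CeMM 15 h *hlh-30(lf)* libraries. Wild-type libraries had 347 and 270 CPM fed, 541 and 556 CPM starved, 259 and 221 CPM after 3 hours in CeMM and 317 and 440 CPM after 15 hours. Starved wild type stood highest and CeMM 15 h *hlh-30(lf)* lowest, an 8.77-fold difference, and neither overlapped any other group. The 5 middle groups from wild-type CeMM 15 h to CeMM 3 h *hlh-30(lf)* each overlapped the next in the order. The wild-type CeMM 15 h libraries were the most unequal pair of this gene, with an SD of 23.1% of their mean.

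*fat-7*, the paralog of *fat-6*, had few counts. Fed *hlh-30(lf)* libraries held 0.845 and 1.05 CPM, against 3.42 and 3.67 CPM in fed wild type, which were the only groups with more than 25 counts in a library. The other 12 libraries held between 2 and 23 counts of *fat-7*, and 10 of them between 2 and 9. Its highest and lowest group means, fed and CeMM 15 h wild type, differed 47.2-fold. Below fed wild type and fed *hlh-30(lf)*, only CeMM 3 h wild type stood apart from the groups beneath it.

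*fat-2*, the desaturase that makes linoleic acid, was the most abundant of the 7 genes per length in every group. It had 517 and 574 CPM in fed, 1604 and 1452 CPM in starved, 2029 and 1926 CPM in CeMM 3 h and 1624 and 1661 CPM in CeMM 15 h *hlh-30(lf)* libraries. Wild-type libraries had 570 and 576 CPM fed, 755 and 791 CPM starved, 1283 and 1343 CPM after 3 hours in CeMM and 1841 and 2297 CPM after 15 hours. Starved *hlh-30(lf)* worms thus already stood above CeMM 3 h wild type, and the fed groups of both genotypes overlapped at the bottom. The top 2 groups in the order, CeMM 15 h wild type and CeMM 3 h *hlh-30(lf)*, also overlapped.

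*fat-1*, the omega-3 desaturase, had the narrowest range, 3.44-fold. It had 327 and 347 CPM in fed, 234.6 and 207.6 CPM in starved, 199 and 183 CPM in CeMM 3 h and 344 and 339 CPM in CeMM 15 h *hlh-30(lf)* libraries. In wild type these were 337 and 340 CPM fed, 185 and 187 CPM starved, 571 and 634 CPM after 3 hours in CeMM and 631 and 650 CPM after 15 hours. Both CeMM groups of wild type stood above all other groups and overlapped each other. CeMM 15 h *hlh-30(lf)*, fed wild type and fed *hlh-30(lf)* overlapped in the middle, and CeMM 3 h *hlh-30(lf)* overlapped starved wild type at the bottom.

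*fat-3* and *fat-4*, the delta-6 and delta-5 desaturases that lie side by side, were also highest in CeMM-fed wild type. *fat-3* had 192 and 199 CPM in fed, 401 and 391 CPM in starved, 340 and 339 CPM in CeMM 3 h and 377 and 368 CPM in CeMM 15 h *hlh-30(lf)* libraries, and in wild type 206 and 204 CPM fed, 296 and 327 CPM starved, 650 and 648 CPM after 3 hours in CeMM and 870 and 816 CPM after 15 hours. No 2 neighbours in the order of its 8 group means overlapped. *fat-4* had 179 and 195 CPM in fed, 227 and 239 CPM in starved, 192 and 184 CPM in CeMM 3 h and 329 and 307 CPM in CeMM 15 h *hlh-30(lf)* libraries, and in wild type 181 and 174 CPM fed, 282 and 260 CPM starved, 610 and 582 CPM after 3 hours in CeMM and 940 and 962 CPM after 15 hours. Its wild-type means thus stood in the order of fed, starved, CeMM 3 h and CeMM 15 h, whereas in *hlh-30(lf)* worms the CeMM 3 h group overlapped the fed group. The group means of *fat-3* and *fat-4* followed each other with a Pearson r of 0.922 over the 8 groups, as a description.

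**Figure D1:**
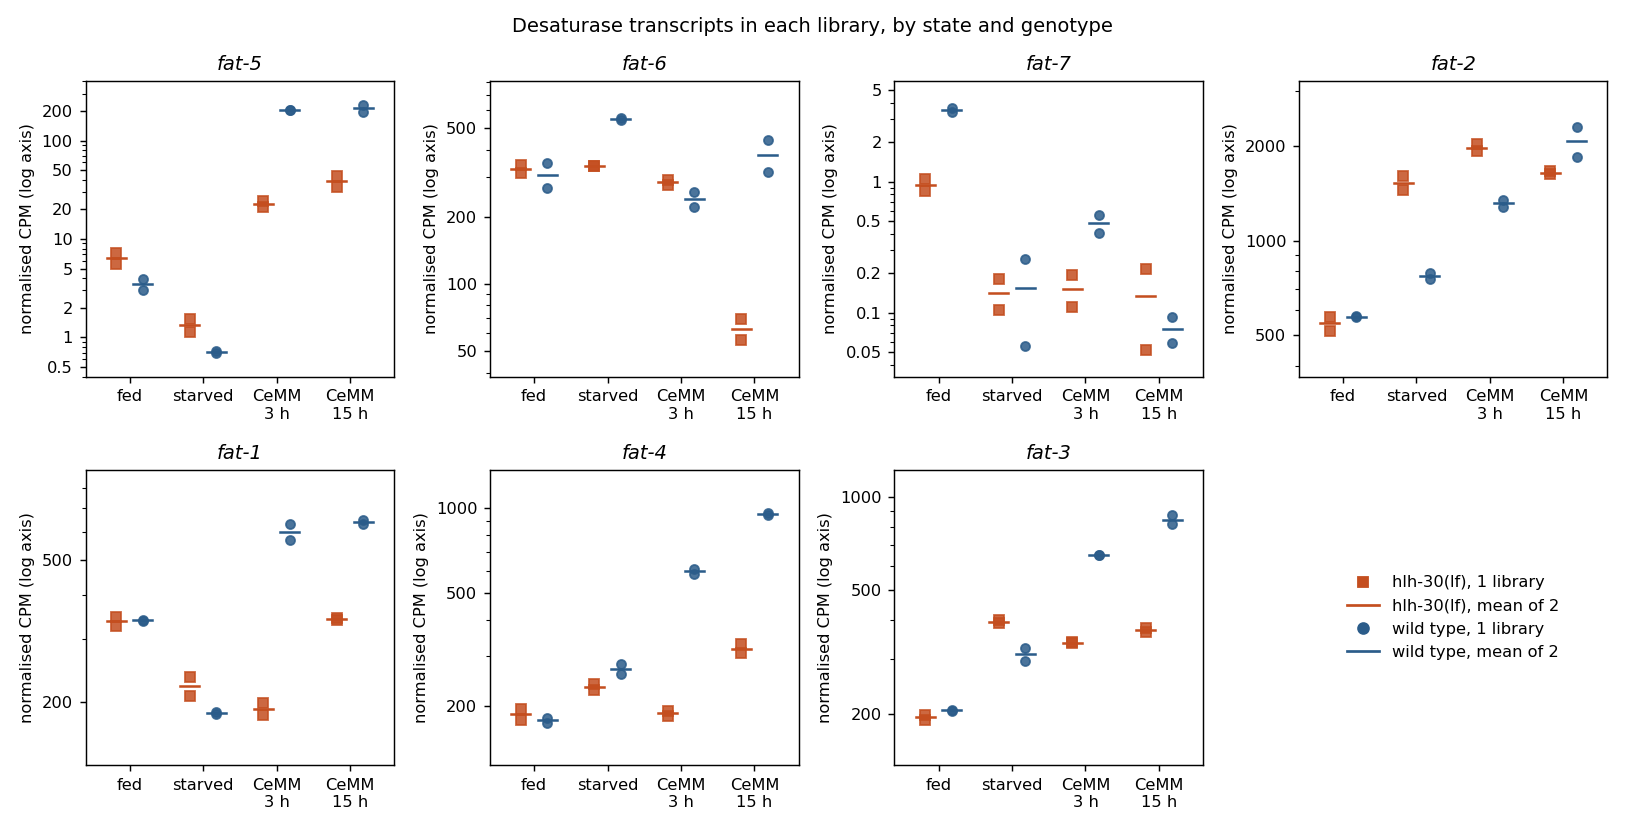
TMM-normalised CPM (log axis) of each desaturase in every library, by state, with *hlh-30(lf)* (orange squares) left of wild type (blue circles) and a bar at the mean of the 2 libraries. *fat-5* reaches 21.3 to 43.7 CPM in CeMM-fed *hlh-30(lf)* and 196 to 231 CPM in CeMM-fed wild type, and *fat-6* drops to 55.9 and 69.2 CPM in CeMM 15 h *hlh-30(lf)*.

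Levels of different genes were compared only per length, as normalised CPM per kilobase of exon (RPKM). In fed *hlh-30(lf)* worms *fat-2* had 430 RPKM, *fat-1* 243, *fat-3* 130, *fat-4* 96.2, *fat-6* 94.0 and *fat-5* 2.74 RPKM, and in fed wild type they had 452, 244, 137, 91.6, 88.5 and 1.48 RPKM. With the release 115 length *fat-6* would have 281 RPKM in fed *hlh-30(lf)* worms and 265 RPKM in fed wild type, above *fat-1*. The 4 PUFA genes *fat-1* to *fat-4* summed to 899, 1747, 2019 and 1952 RPKM in fed, starved, CeMM 3 h and CeMM 15 h *hlh-30(lf)* worms, and to 924, 1090, 2208 and 3143 RPKM in wild type. Their sums were close in fed worms, higher in starved *hlh-30(lf)* worms than in starved wild type, and lower in *hlh-30(lf)* worms after 15 hours in CeMM. Of these sums, *fat-2* alone made up 68.9% ± 0.97 in starved *hlh-30(lf)* worms and 55.9% ± 0.43 in starved wild type, and 77.2% ± 0.22 in CeMM 3 h *hlh-30(lf)* worms and 46.9% ± 0.35 in CeMM 3 h wild type (SD, n = 2 each).

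The 3 delta-9 genes summed to 97.5 ± 5.8, 97.0 ± 0.12, 91.5 ± 2.2 and 34.7 ± 5.7 RPKM in fed, starved, CeMM 3 h and CeMM 15 h *hlh-30(lf)* worms, and to 93.1 ± 15, 158 ± 3.0, 156 ± 7.5 and 200.1 ± 36 RPKM in wild type (SD, n = 2 each). Almost all of it was *fat-6* in fed and starved worms, with *fat-5* at no more than 3.03% in any of those 8 libraries. After 3 hours in CeMM *fat-5* made up 10.7% ± 1.3 of the delta-9 sum in *hlh-30(lf)* worms and 55.7% ± 2.9 in wild type. After 15 hours the shares of *fat-5* were 47.9% ± 0.52 in *hlh-30(lf)* worms and 46.0% ± 2.9 in wild type, of sums of 34.7 and 200.1 RPKM. With the release 115 lengths these shares were 7.82% and 39.5% in *hlh-30(lf)* worms and 47.2% and 37.6% in wild type.

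**Figure D2:**
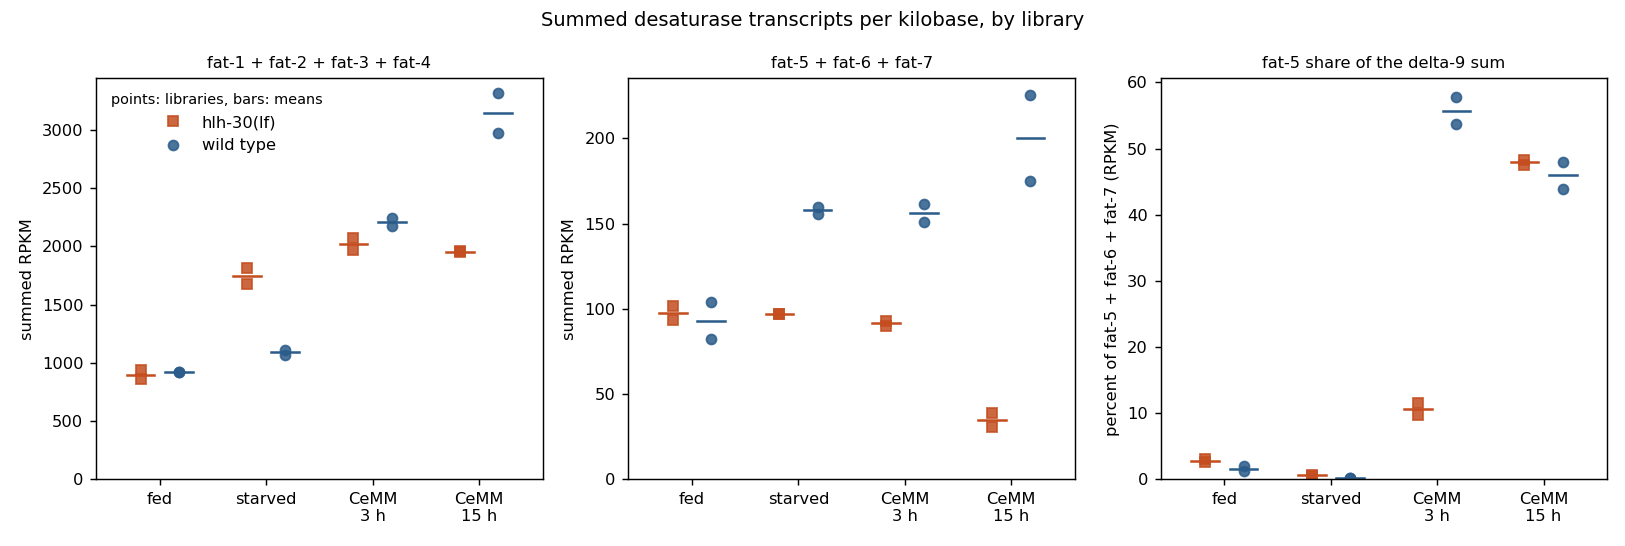
Summed RPKM of the 4 PUFA desaturases (left) and of the 3 delta-9 desaturases (middle), and the percentage of the delta-9 sum that is *fat-5* (right), for each library by state, with *hlh-30(lf)* (orange squares) left of wild type (blue circles) and bars at the means of 2. The delta-9 sum of CeMM 15 h *hlh-30(lf)* libraries, 34.7 RPKM on average, lies below every other group, while *fat-5* makes up 47.9% of it, close to the 46.0% of wild type.

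Starvation was examined first by comparing starved with fed larvae of the same genotype. In both genotypes *fat-5* and *fat-7* fell, *fat-1* fell less, and *fat-2*, *fat-3* and *fat-4* rose. *fat-6* was not called in *hlh-30(lf)* worms and rose in wild type, and that difference was itself called. In *hlh-30(lf)* worms 6 of the 7 genes were called, 3 higher and 3 lower, where 37.6% of all tested genes were called (18.4% higher and 19.1% lower). In wild type all 7 were called, 4 higher and 3 lower, where 40.2% of all genes were (20.1% higher and 20.1% lower). Called here means an adjusted p of at most 0.05 with edgeR's quasi-likelihood test and Benjamini-Hochberg adjustment over all 30177 genes, and every log2 fold change and p below comes from that test unless another is named. The members' median log2 fold change was 0.04 in *hlh-30(lf)* worms and 0.43 in wild type, that of all genes was 0.0 in each comparison made, and that of 8595 genes with at least 10 CPM was -0.06 in *hlh-30(lf)* worms and -0.17 in wild type.

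Among the delta-9 genes, *fat-5* fell by 2.28 on the log2 scale in *hlh-30(lf)* worms (standard error [SE] 0.21, adjusted p = 1.75e-07) and fell by 2.27 in wild type (SE 0.26, adjusted p = 1.80e-06), 4.84-fold and 4.83-fold. These rest on 43 to 289 counts per *hlh-30(lf)* library and 25 to 124 per wild-type library. *fat-7* fell by 2.71 in *hlh-30(lf)* worms (SE 0.46) and fell by 4.49 in wild type (SE 0.35). Without starved wild-type sample 1 the wild-type log2 fold change was -5.91, and without sample 2 it was -3.78. From the summed counts, 10 starved against 64 fed in *hlh-30(lf)* worms and 11 against 224 in wild type, the falls were 6.66-fold (exact 95% interval 3.39 to 14.5) and 23.0-fold (12.6 to 46.7), which covers counting error only. *fat-6* had a log2 fold change of 0.04 (SE 0.17) in *hlh-30(lf)* worms, which was not called, and rose by 0.83 (SE 0.17, adjusted p = 0.00179) in wild type. The genotypes' changes of *fat-6* differed by -0.79 (*hlh-30(lf)* minus wild type, SE 0.23, adjusted p = 0.0268), a call lost without fed *hlh-30(lf)* sample 1 or without any 1 of the 4 starved samples (adjusted p = 0.0505 to 0.1003).

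Among the PUFA genes, the rise of *fat-2* was 1.49 (SE 0.09) in *hlh-30(lf)* worms and 0.43 (SE 0.09) in wild type, 2.80-fold and 1.35-fold, and these differed by 1.06 (SE 0.13, adjusted p = 1.31e-07). The rise of *fat-3* was 1.02 (SE 0.08) and 0.60 (SE 0.08), and these differed by 0.42 (SE 0.11, adjusted p = 0.00355). *fat-4* rose by 0.32 (SE 0.08) in *hlh-30(lf)* worms and 0.61 (SE 0.08) in wild type, and *fat-1* fell by 0.61 in *hlh-30(lf)* worms and fell by 0.86 in wild type. Neither of these 2 genes differed between the genotypes past the threshold, with adjusted p = 0.0618 for *fat-4* and 0.117 for *fat-1*. Between the genotypes, 3 of the 7 changes differed, 2 with a higher and 1 with a lower log2 fold change in *hlh-30(lf)* worms, where 27.7% of all genes differed (14.1% higher and 13.6% lower). Without fed *hlh-30(lf)* sample 1 the rise of *fat-4* in *hlh-30(lf)* worms lost its call (0.22, adjusted p = 0.153). The difference of *fat-4* was called without starved *hlh-30(lf)* sample 2 or starved wild-type sample 2 (adjusted p = 0.0221 and 0.0452), that of *fat-1* without the first of these (0.0145) and that of *fat-7* without starved wild-type sample 1 (3.20, adjusted p = 0.0169).

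The response to CeMM was examined by comparing refed with starved larvae. In *hlh-30(lf)* worms *fat-5* rose most in CeMM, the PUFA genes had log2 fold changes between -0.31 and 0.63, and *fat-6* was lower by 15 hours. In wild type *fat-5* rose more than in *hlh-30(lf)*, all 4 PUFA genes rose and *fat-6* fell. After 3 hours 4 of the 7 genes were called in *hlh-30(lf)* worms, 2 higher and 2 lower, where 16.4% of all genes were (7.71% higher and 8.71% lower). All 7 were called in wild type, 6 higher and 1 lower, where 30.1% of all genes were (15.0% higher and 15.1% lower). After 15 hours 4 were called in *hlh-30(lf)* worms, 3 higher and 1 lower, where 30.8% of all genes were (15.6% higher and 15.1% lower). For wild type 6 were called, 5 higher and 1 lower, where 29.2% were (15.4% higher and 13.8% lower). The members' median log2 fold changes were -0.21 and 0.10 after 3 and 15 hours in *hlh-30(lf)* worms and 1.14 and 1.44 in wild type, beside 0.01, 0.04, 0.11 and 0.12 for the 8595 genes.

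*fat-5* rose in *hlh-30(lf)* worms by 4.10 (SE 0.19, adjusted p = 3.36e-10) after 3 hours and 4.86 (SE 0.19, adjusted p = 8.61e-12) after 15 hours, that is 17.1-fold and 29.1-fold. In wild type the rise was 8.14 (SE 0.21), 282-fold, after 3 hours and 8.22 (SE 0.21) after 15 hours. The changes differed between the genotypes by -4.04 (SE 0.33, adjusted p = 1.27e-07) after 3 hours and by -3.35 (SE 0.33, adjusted p = 9.31e-07) after 15 hours. Starved *fat-5* levels were at most 1.56 CPM, so the sizes of these folds are imprecise. *fat-6* fell in *hlh-30(lf)* worms by 2.43 (SE 0.18, adjusted p = 7.73e-07) after 15 hours, 5.38-fold, whereas its log2 fold change of -0.24 after 3 hours was not called. In wild type *fat-6* fell by 1.19 (SE 0.17) after 3 hours and fell by 0.53 (SE 0.17, adjusted p = 0.0329) after 15 hours. Between the genotypes the change of *fat-6* differed by 0.95 after 3 hours (SE 0.23, adjusted p = 0.0131) and by -1.89 after 15 hours (SE 0.24, adjusted p = 0.000120), in opposite directions. Without CeMM 15 h sample 1, starved sample 1 or starved sample 2 the wild-type fall at 15 hours lost its call (adjusted p = 0.1005 to 0.154, log2 fold changes -0.32, -0.55 and -0.51), and without either starved *hlh-30(lf)* sample the difference at 3 hours did (adjusted p = 0.0531 and 0.0640).

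In the PUFA branch, *fat-1* had a log2 fold change of -0.21, not called, after 3 hours and rose by 0.63 (SE 0.08) after 15 hours in *hlh-30(lf)* worms, against rises of 1.69 and 1.78 (SE 0.08 each) in wild type. *fat-4* fell by 0.31 after 3 hours (adjusted p = 0.00628) and rose by 0.45 after 15 hours in *hlh-30(lf)* worms, while in wild type it rose by 1.14 and 1.81 (SE 0.08 each). *fat-3* fell by 0.22 after 3 hours (adjusted p = 0.0468) and had a log2 fold change of -0.09, not called, after 15 hours in *hlh-30(lf)* worms, while in wild type it rose by 1.06 and 1.44. *fat-2* rose by 0.37 (SE 0.09) in *hlh-30(lf)* worms and by 0.77 (SE 0.09) in wild type after 3 hours, and its 15-hour log2 fold change was 0.10, not called, in *hlh-30(lf)* worms and 1.42 in wild type. At 3 hours in *hlh-30(lf)* worms *fat-3* lost its call without CeMM 3 h sample 1 or 2 or starved sample 1 (-0.19, -0.20 and -0.20). With the replicate number as a block its adjusted p was 0.0679, and with edgeR's older quasi-likelihood fit 0.113. It was 0.205 with scaling by library size only and 0.162 in a fit of only the groups compared. *fat-4* lost its call without CeMM 3 h sample 1 or 2 (-0.31 and -0.26), or with only the groups compared (adjusted p = 0.0695). *fat-1* was called without starved sample 2 (-0.30) and with DESeq2 (-0.21, adjusted p = 0.0390).

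For each of the 4 PUFA genes the log2 fold change in CeMM was the lower one in *hlh-30(lf)* worms at both times. The differences after 3 hours were -1.90 for *fat-1*, -0.39 for *fat-2*, -1.28 for *fat-3* and -1.45 for *fat-4*, with adjusted p = 9.13e-13, 0.0240, 4.39e-10 and 9.93e-11. After 15 hours they were -1.15, -1.32, -1.53 and -1.36, all with an adjusted p of at most 1.04e-08. With *fat-5* and *fat-6* included, 6 of the 7 genes differed after 3 hours, 1 higher and 5 lower, where 21.8% of all genes differed (10.3% higher and 11.5% lower). After 15 hours 6 differed, all lower, where 22.4% of all genes did (10.4% higher and 12.0% lower). The 3-hour difference of *fat-2* was not called without either CeMM 3 h *hlh-30(lf)* sample, starved *hlh-30(lf)* sample 1, CeMM 3 h wild-type sample 2 or starved wild-type sample 1 (adjusted p = 0.0891 to 0.200). *fat-7* rose after 3 hours in wild type on 39 counts against 11 (3.14-fold, exact 95% counting interval 1.58 to 6.80), a call lost without CeMM 3 h sample 1 or starved sample 2 (adjusted p = 0.109 and 0.268). Its log2 fold change of 1.63 was 3.05 without starved sample 1 and 0.92 without starved sample 2.

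**Figure D3:**
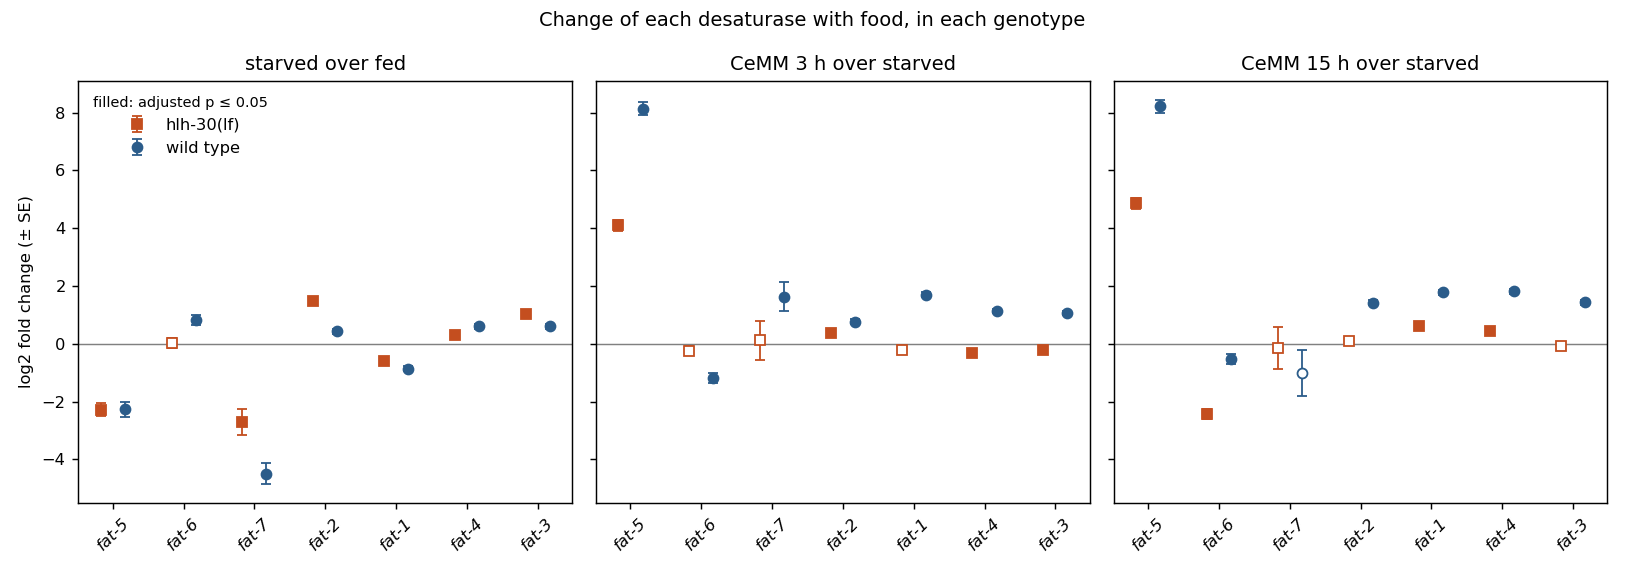
Log2 fold changes with standard errors of each desaturase for starved over fed (left), CeMM 3 h over starved (middle) and CeMM 15 h over starved (right), with *hlh-30(lf)* (orange squares) left of wild type (blue circles), filled where the adjusted p is at most 0.05. *fat-5* has the largest rises, 4.10 and 4.86 in *hlh-30(lf)* and 8.14 and 8.22 in wild type, and the 4 PUFA genes on the right of each panel stand above 0 in CeMM-fed wild type.

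Between 3 and 15 hours in CeMM *fat-6* fell by 2.19 (SE 0.17, adjusted p = 2.14e-06) in *hlh-30(lf)* worms and rose by 0.66 (SE 0.17, adjusted p = 0.0219) in wild type; the difference of these changes was not tested as such. In *hlh-30(lf)* worms *fat-1*, *fat-4* and *fat-5* rose by 0.84, 0.76 and 0.77 and *fat-2* fell by 0.27. In wild type *fat-2*, *fat-3* and *fat-4* rose by 0.66, 0.38 and 0.67, while *fat-1* (0.09) and *fat-5* (0.08) were not called, and *fat-7* fell, on 5 counts against 39. In all, 5 of the 7 genes were called in *hlh-30(lf)* worms, 3 higher and 2 lower, where 27.4% of all genes were (14.1% higher and 13.3% lower), and 5 in wild type, 4 higher and 1 lower, where 15.0% were (8.88% higher and 6.13% lower). The *fat-2* call in *hlh-30(lf)* worms was lost without any 1 of its 4 samples (adjusted p = 0.0866 to 0.207), and the *fat-6* call in wild type without CeMM 15 h or CeMM 3 h sample 2 (adjusted p = 0.113 and 0.123).

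Set against fed larvae, CeMM 15 h larvae held more *fat-2*, *fat-3*, *fat-4* and *fat-5* transcript in both genotypes. In *hlh-30(lf)* worms these genes were higher by 1.59, 0.93, 0.77 and 2.59 on the log2 scale, *fat-6* was lower (-2.39, SE 0.18), *fat-7* was lower (-2.85, SE 0.47, but -4.07 and -2.11 without CeMM 15 h sample 1 and sample 2) and *fat-1* was not called (0.02). In wild type they were higher by 1.85, 2.04, 2.42 and 5.95, *fat-1* was higher by 0.92, *fat-7* was lower and *fat-6* was not called (0.30). Thus 6 genes were called in *hlh-30(lf)* worms, 4 higher and 2 lower, where 29.2% of all genes were (14.1% higher and 15.1% lower), and 6 in wild type, 5 higher and 1 lower, where 33.5% were (16.7% higher and 16.9% lower). *fat-6* was called higher in wild type without CeMM 15 h sample 1 or fed sample 1 (0.51 and 0.48, adjusted p = 0.0125 and 0.0325).

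The genotypes were then compared within each state. In fed worms 5 of the desaturases were not called, in starved worms *fat-2* was higher in *hlh-30(lf)*, and in CeMM most of the family was lower in *hlh-30(lf)*. Of the 7 genes, 2 were called in fed worms, 1 higher and 1 lower, where 4.42% of all genes were called (2.26% higher and 2.16% lower). In starved worms 6 were called, 4 higher and 2 lower, where 38.1% of all genes were (18.8% higher and 19.3% lower). After 3 hours in CeMM 6 were called, 1 higher and 5 lower, where 36.2% were (17.7% higher and 18.6% lower), and after 15 hours 6, all lower, where 24.0% were (11.7% higher and 12.4% lower). The members' median log2 fold change was -0.01, 0.25, -1.65 and -1.18 in the 4 states, beside 0.01, 0.12, 0.01 and 0.02 for the 8595 genes.

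In fed worms *fat-7* was lower in *hlh-30(lf)*, with a log2 fold change of -1.92 (SE 0.25, adjusted p = 5.02e-06), 64 counts against 224, or 3.81-fold (exact 95% counting interval 2.88 to 5.12). *fat-5* was higher by 0.90 (SE 0.18, adjusted p = 0.00845), but not without fed *hlh-30(lf)* sample 1 or fed wild-type sample 1 (adjusted p = 0.0828 and 0.0725). The log2 fold changes of the other 5 genes lay between -0.07 and 0.09. The libraries of fed worms therefore differed in the 2 least abundant desaturases per length and not, at this precision, in the 5 abundant ones, whose SEs were 0.08 to 0.17.

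In starved worms *fat-2* was higher in *hlh-30(lf)* by 0.98 (SE 0.09, adjusted p = 4.31e-10), 1.98-fold, and *fat-3* by 0.35 (SE 0.08, adjusted p = 0.000490). *fat-6* was lower (-0.71, SE 0.17, adjusted p = 0.00534). *fat-1* (0.25, adjusted p = 0.0179) and *fat-5* (0.89, adjusted p = 0.0260) were higher and *fat-4* (-0.22, adjusted p = 0.0337) was lower by the test. *fat-2* and *fat-3* were called without any 1 of the 4 libraries. *fat-6* was not called without either starved *hlh-30(lf)* sample (adjusted p = 0.0518 and 0.0521), *fat-1* and *fat-5* were not called without starved *hlh-30(lf)* sample 1 or either wild-type sample (adjusted p = 0.0638 to 0.121 and 0.0934 to 0.237), and *fat-4* was not called without sample 1 of either genotype (adjusted p = 0.204 and 0.266). Beside these values, the 6 intestinal markers summed to 794 and 840 CPM in starved *hlh-30(lf)* libraries against 2308 and 2685 CPM in starved wild type, with 4 of the 6 called lower and 1 higher. The 5 epidermal markers summed to 361 and 362 CPM against 156 and 165 CPM, with 2 called higher and 3 not called. The 3 muscle markers summed to 9640 and 13467 CPM against 23472 and 23542 CPM, with 2 called lower and 1 not called. The 4 neuronal markers summed to 662 and 751 CPM against 486 and 506 CPM, with 3 called higher and 1 not called. The part of any of these markers in the desaturase differences was not tested.

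In CeMM, *fat-5* was lower in *hlh-30(lf)*, with log2 fold changes of -3.15 (SE 0.15) after 3 hours and -2.46 (SE 0.14) after 15 hours. Those of *fat-4* were -1.66 and -1.58, those of *fat-1* -1.66 and -0.91 and those of *fat-3* -0.94 and -1.18 (SE 0.08 each), and all 8 values had an adjusted p of at most 1.78e-09. In linear terms, *fat-5* was 8.88-fold and 5.51-fold lower and *fat-4* 3.17-fold and 2.99-fold lower. *fat-6* was not called after 3 hours (0.24, SE 0.17) and was lower (-2.60, SE 0.18, adjusted p = 6.88e-07), 6.06-fold, after 15 hours. *fat-2* was higher after 3 hours by 0.59 (SE 0.09, adjusted p = 3.69e-06) and lower after 15 hours (-0.33, SE 0.09, adjusted p = 0.00570), and the 15-hour call was lost without CeMM 15 h *hlh-30(lf)* sample 1 (adjusted p = 0.101) or wild-type sample 2 (adjusted p = 0.273). *fat-7* was lower after 3 hours, 11 counts against 39 (3.19-fold, exact 95% counting interval 1.60 to 6.91), a call lost without CeMM 3 h *hlh-30(lf)* sample 2 or wild-type sample 1 (adjusted p = 0.126 and 0.0953). Intestinal markers summed to 1171 and 1190 CPM in *hlh-30(lf)* against 2084 and 2397 CPM in wild type after 3 hours. Of these 6, 5 were called lower and 1 higher. After 15 hours they summed to 1807 and 1893 CPM against 1656 and 1763 CPM, with 2 lower and 2 higher. The 5 epidermal markers summed to 250 and 251 CPM against 174 and 189 CPM after 3 hours, with 1 called higher. After 15 hours they summed to 191 and 208 CPM against 144 and 165 CPM, with 2 higher. Of the 3 muscle markers 2 were called higher at both times, and of the 4 neuronal markers 1 was. No epidermal, muscle or neuronal marker was called lower. The part of these markers in the desaturase differences was not tested.

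**Figure D4:**
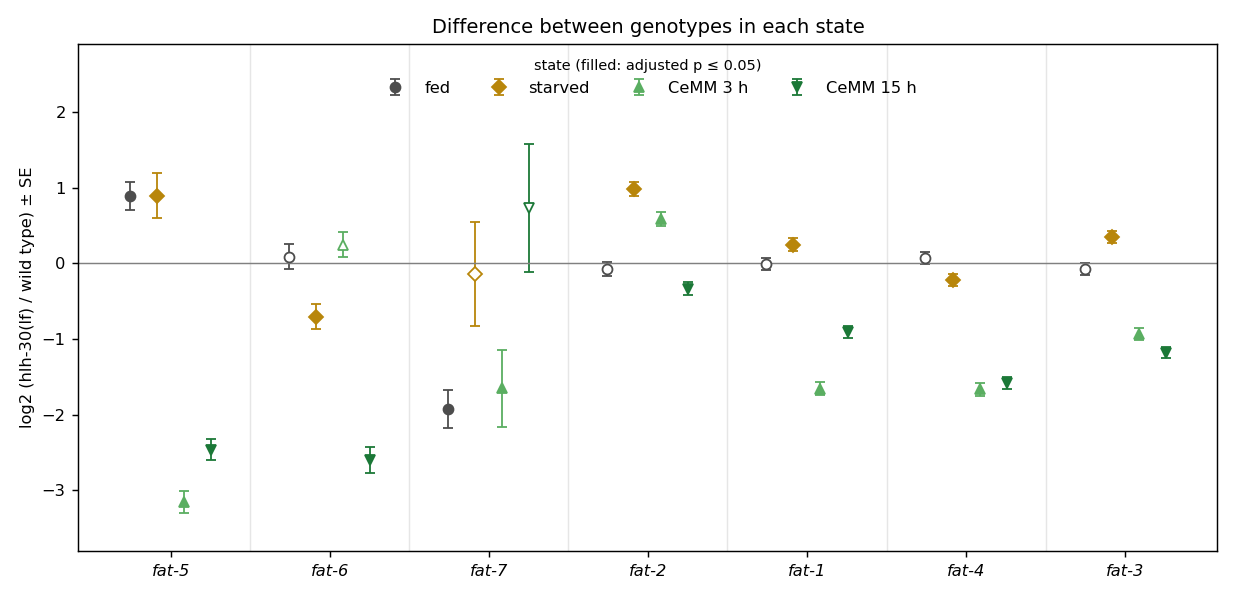
Log2 ratios of *hlh-30(lf)* to wild type with standard errors for each desaturase in fed (grey circles), starved (yellow diamonds), CeMM 3 h (light green upward triangles) and CeMM 15 h (dark green downward triangles) worms, filled where the adjusted p is at most 0.05. In CeMM *fat-5*, *fat-1*, *fat-4* and *fat-3* lie between -3.15 and -0.91 at both times, and in fed worms all but *fat-5* and *fat-7* lie between -0.07 and 0.09.

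Other genes of the pathway were read from lists of elongases, desaturase partners, enzymes of fatty acid synthesis and regulators. Of 12 genes of fatty acid elongation, 8 were lower and none higher in starved *hlh-30(lf)* worms against fed ones, and 9 were lower in wild type (medians -0.64 and -1.58), where 19.1% and 20.1% of all genes were lower. When the starved genotypes were compared, *hlh-30(lf)* worms had more transcript of 9 of the 12 and less of 1. The higher genes were led by *elo-5* (2.82, SE 0.29), *elo-4* (2.49) and *elo-6* (1.80), where 18.8% of all genes were higher and 19.3% lower. *elo-1*, whose product acts between FAT-3 and FAT-4, had 642 ± 49 CPM in starved *hlh-30(lf)* worms and 330.3 ± 9.1 CPM in starved wild type (SD, n = 2 each). After 15 hours in CeMM none of the 12 was higher and 6 were lower than in starvation in *hlh-30(lf)* worms, while in wild type 8 rose and none fell. Of all genes, 15.1% fell in *hlh-30(lf)* worms and 15.4% rose in wild type. Of these 15-hour changes, 10 of 12 differed between the genotypes, all lower in *hlh-30(lf)*, where 12.0% of all genes were lower. These are changes from starvation, where 9 of the 12 already stood above wild type, and not levels in CeMM. Set directly against wild type after 15 hours in CeMM, the mutant strain showed 5 of the 12 reduced, 3 raised and 4 not called. The same counts were found after 3 hours, where the median log2 fold change was 0.03.

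The 4 genes of de novo fatty acid synthesis all rose in wild type in CeMM at both times, where 15.0% and 15.4% of all genes rose. In the mutant strain 1 rose and 1 fell after 3 hours, and 1 rose and 3 fell after 15 hours. All 4 changes differed between the genotypes at both times, each with the smaller log2 fold change in the mutant. The starting levels differed too, since 3 of these genes already exceeded wild type in starved mutant larvae and 1 was not called. *fasn-1*, the fatty acid synthase, had 1531 ± 556 CPM in starved *hlh-30(lf)* worms and 212 ± 7.2 CPM in starved wild type (log2 fold change 2.85, SE 0.21), and the 2 starved *hlh-30(lf)* libraries were far apart. Among the partners that pass electrons to desaturases, *cytb-5.2* rose in starvation by 1.74 in *hlh-30(lf)* worms and 1.87 in wild type, together with *fat-2*, *fat-3* and *fat-4*. *hpo-19* and T05H4.4 fell in both. Of the 2 other lipid desaturase genes, *ttm-5* was higher in starved *hlh-30(lf)* worms by 0.997 and F33D4.4 was lower (-0.34).

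Of 12 regulators, the nuclear receptor gene *nhr-49* rose in starvation by 0.85 in *hlh-30(lf)* worms and 0.48 in wild type, and *nhr-80* by 0.82 and 0.60. Both receptors are known to promote expression of delta-9 desaturase genes. In CeMM, *mdt-15*, a Mediator subunit gene, was lower in *hlh-30(lf)* (log2 fold changes -0.88 and -0.30 after 3 and 15 hours), and so was *sbp-1*, the SREBP gene (-0.43 and -0.50). *nhr-49* was higher in *hlh-30(lf)* by 0.30 after 3 hours and was not called after 15 hours (0.13), and *nhr-80* was called at neither time (0.00 and -0.04). After 3 hours *hlh-30(lf)* worms had more transcript of 2 of the 12 regulators and less of 6, where 17.7% of all genes were higher and 18.6% lower. After 15 hours 1 was higher and 5 were lower, where 11.7% and 12.4% of all genes were. The mutated gene *hlh-30* is in this list and is 1 of the lower genes at both times in CeMM. In fed worms none of these genes was called between the genotypes except *hlh-30* itself (-0.71, SE 0.10), where 4.42% of all genes were called.

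The genes whose group means were most like each desaturase's, by Pearson r of log2(CPM + 1) over the 8 groups among 8595 genes, were read as a description only. For *fat-5* they were *bra-2* (0.980), W01A11.1 (0.974) and C31C9.7 (0.964), and for *fat-4* *clh-4* (0.985), *prk-1* (0.983) and F21C10.10 (0.976). For *fat-1* they were E01G4.3 (0.985), Y42G9A.3 (0.982) and *pgph-2* (0.981), for *fat-2* B0454.6 (0.971), *lin-5* (0.971) and C50F4.16 (0.958), and for *fat-3* *clh-3* (0.969), T12G3.2 (0.967) and Y76A2B.4 (0.962). *fat-6* was the least matched, with *hot-3* at 0.942 and the next, F25B5.3, at 0.862. For the sparse *fat-7* they were *chs-2* (0.956), *adt-1* (0.938) and *msra-1* (0.934). No desaturase was among the first 3 of another.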

How the data were processed

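RNAseq counts of 16 libraries were analysed, 2 for each of 8 groups. Per the labels and the study's methods, the authors aligned 50-nucleotide single-end reads to WBcel235 with STAR (2.0.4b) and counted uniquely aligned, unambiguous reads per gene with Subread's featureCounts (1.45 in the submitters' processing notes), and deposited raw counts for 46726 genes. Their files also hold CPM (counts scaled by the library's total) and RPKM (CPM per kilobase of exon) as the authors computed them, which were used only to check that arithmetic. Whether strand was used in counting is not given in the sources used here.

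Genes with no count in all libraries were removed, leaving 30177, of which 27879 had a symbol. Counts were normalized by TMM and tested with edgeR's newer quasi-likelihood fit (edgeR 4.0.16, limma 3.58.1, DESeq2 1.42.0, R 4.3.3), with 1 coefficient per group, no replicate block, robust estimation and Benjamini-Hochberg adjustment over all 30177 genes. Genotype differences in a response are interaction contrasts, given as *hlh-30(lf)* minus wild type. The SE was taken from the size of the log2 fold change and its F statistic. The fit was tested on simulated counts with known changes.

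Normalised CPM use TMM-scaled totals, and RPKM divide these by the deposited exonic length. *fat-7* ratios carry exact binomial intervals of the summed counts. Alternatives were the older quasi-likelihood fit, DESeq2, limma-voom (the study's method), RLE size factors, library size only, edgeR's filter on low counts, rRNA genes left out, the 100 most abundant other genes left out, the replicate number as a block, the compared groups only, and each sample left out. A block of crossed numbers was added after the data were seen.

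All 7 desaturases are named in every comparison. From each list of pathway genes, up to 3 with the largest log2 fold change were eligible among those called, at 1 CPM or more on average and with no overlap of samples, and *hlh-30*, *nhr-49*, *nhr-80*, *sbp-1* and *mdt-15* in any case. *elo-1* was named after its values were seen. The members, lists and markers were chosen with earlier results of these data known. Python 3.11.15 with scipy 1.17.1, pandas 2.3.3, numpy 2.4.6 and matplotlib 3.10.9 served for tables and figures. A search of promoters and a comparison of protein sequences were not made.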

Additional observations from a re-analysis of the deposited data

Results flagged for a closer look

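With the interaction test of edgeR's quasi-likelihood fit, 15 responses of desaturases differed between *hlh-30(lf)* and wild type (log2 fold change in *hlh-30(lf)* minus that in wild type, adjusted p over all 30177 genes). For starved against fed larvae these were *fat-2* (1.06, adjusted p = 1.31e-07), *fat-3* (0.42, adjusted p = 0.00355) and *fat-6* (-0.79, adjusted p = 0.0268). For 3 hours in CeMM against starvation they were *fat-5* (-4.04, adjusted p = 1.27e-07), *fat-1* (-1.90, adjusted p = 9.13e-13), *fat-4* (-1.45, adjusted p = 9.93e-11), *fat-3* (-1.28, adjusted p = 4.39e-10), *fat-2* (-0.39, adjusted p = 0.0240) and *fat-6* (0.95, adjusted p = 0.0131). For 15 hours in CeMM they were *fat-5* (-3.35, adjusted p = 9.31e-07), *fat-6* (-1.89, adjusted p = 0.000120), *fat-3* (-1.53, adjusted p = 1.60e-11), *fat-4* (-1.36, adjusted p = 2.88e-10), *fat-2* (-1.32, adjusted p = 4.39e-09) and *fat-1* (-1.15, adjusted p = 1.04e-08). Of all genes, 27.7% differed for starved against fed larvae, 21.8% for 3 hours in CeMM and 22.4% for 15 hours. The calls of *fat-6* for starved against fed larvae and at 3 hours, and of *fat-2* at 3 hours, did not hold without some single samples, as given above. The 3-hour and 15-hour contrasts share the starved libraries, so their values are not independent of each other. With 2 samples per group, no search for single outlying samples was made.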

How the results depend on the processing

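Log2 fold changes of desaturases were recomputed under the settings other than leaving out 1 sample. Of these, 1155 kept their direction and their side of the threshold, 18 lost and 9 gained a call and 8 changed sign. With these settings and the crossed block, the numbers of desaturases called moved by more than 1.5 times in 3 cases, and smaller moves are not listed. Blocks of the same numbers in fits of only the groups compared are outside this tally and are given below. In fed *hlh-30(lf)* against wild type 1 was called with limma-voom (2 as reported). In CeMM 3 h against starved *hlh-30(lf)* 2 were called with only the groups compared (4 as reported). In starved *hlh-30(lf)* against wild type (6 as reported) 2 were called with the crossed replicate block in a fit of only the groups compared. That fit without a block called 4. Leaving out 1 sample gave 1 to 2, 2 to 5 and 2 to 5 in these comparisons. Between fed and between starved genotypes *fat-5* lost its call with limma-voom (adjusted p = 0.0512 and 0.138), and between starved genotypes *fat-4* lost it with the older quasi-likelihood fit (adjusted p = 0.0749). *fat-2* lost it with only the groups compared, between CeMM 15 h genotypes (adjusted p = 0.0592) and in the 3-hour interaction (0.0683), as it did there with RLE (0.0502). Log2 fold changes that changed sign were not called in any of these fits. For the starved-fed interaction of *fat-5* (near 0) they were 0.0089 with DESeq2, 0.0038 with RLE, 0.049 with library size only and 0.035 with the filter on low counts. The others were 0.14 for *fat-7* between starved genotypes with limma-voom, and with library size only -0.17 for *fat-5* and -0.15 for *fat-1* in wild-type CeMM 15 h against 3 h and 0.0044 for *fat-1* between fed genotypes. Library size only shifted the median of 8595 genes by -0.23 in wild-type CeMM 15 h against 3 h, by -0.19 and -0.15 against starved and fed, by 0.11 in *hlh-30(lf)* CeMM 15 h against fed and by 0.28 between CeMM 15 h genotypes, where *fat-2* then had -0.04. The highest rRNA share, 12.9% of counts, was in wild-type CeMM 15 h sample 2.

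With 1 sample left out, 23 log2 fold changes of desaturases changed sign. In these fits *fat-7* ranged from -1.33 to 0.62 (CeMM 15 h against starved *hlh-30(lf)*), -1.48 to 0.48 (against CeMM 3 h), -0.29 to 0.53 (CeMM 3 h against starved), -1.72 to 0.41 (wild-type CeMM 15 h against starved), -0.85 to 1.28 and -0.48 to 1.48 (starved and CeMM 15 h genotypes) and -0.54 to 1.62 (15-hour interaction). Between fed genotypes the ranges were -0.060 to 0.044 for *fat-1*, -0.15 to 0.011 for *fat-2*, -0.00023 to 0.14 for *fat-4* and -0.086 to 0.28 for *fat-6*. Those of *fat-1* in *hlh-30(lf)* CeMM 15 h against fed, *fat-6* in starved against fed *hlh-30(lf)*, *fat-5* in wild-type CeMM 15 h against 3 h and *fat-5* in the starved-fed interaction were -0.035 to 0.069, -0.046 to 0.057, -0.049 to 0.19 and -0.22 to 0.22.

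Same-numbered samples did not consistently deviate together, and the numbers were not taken to pair the samples, since no source ties a number to 1 run (r of deviations from the group means -0.306 to 0.451 over 28 pairs of groups). With the replicate block 3 desaturases were called in CeMM 3 h against starved *hlh-30(lf)* (4 without it, *fat-3* -0.22, adjusted p = 0.0679 by edgeR) in the fit of all groups, and no other call changed there. For the 4 comparisons with r under -0.1, only the groups compared were fitted with a block of crossed numbers and with one of the same numbers. In wild-type CeMM 3 h against starved these called 6 and 6 desaturases (7 as reported), and 7570 and 8329 of 27032 genes. In wild-type CeMM 15 h against 3 h they called 4 and 1 (5 as reported), and 2574 and 1351 of 26145 genes. Between starved genotypes they called 2 and 3 (6 as reported), and 9242 and 9855 of 27019 genes. Between CeMM 15 h genotypes they called 5 and 5 (6 as reported), and 5782 and 5708 of 25534 genes. Over all genes, 1335 were called between fed genotypes, against 2031 with the older quasi-likelihood fit and 790 to 890 with 1 sample left out. For wild-type CeMM 15 h against 3 h these numbers were 4530, and 2754 with only the groups compared, and for CeMM 3 h against starved *hlh-30(lf)* 4953, and 3295 without CeMM 3 h sample 2. The 2 samples per group and the few *fat-7* counts limit what could be called.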
